A study of Mus musculus with 7 samples.

Results

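The 10 genes described here encode the MHC class I peptide presentation machinery of the mouse. They were chosen by name and not by a rule on their measured values, although earlier results of these data were known. The genes are H2-K1, H2-D1, B2m, Tap1, Tap2, Tapbp, Psmb8, Psmb9, Psmb10 and Nlrc5. All 10 were found among the 54446 genes of the count table, and all 10 passed the filter on low counts that left 16438 genes. RNA came from pancreatic spheroids, which are epithelial cultures grown in 3 dimensions, of C57BL/6J wild-type mice. The untreated group (3 libraries, 01 to 03) came from mice with no treatment. The post-caerulein group (4 libraries, 01 to 04) came from mice that had earlier received caerulein, a peptide that acts like cholecystokinin and provokes pancreatitis. All libraries shared one growth medium, which contained EGF, hydrocortisone, cholera toxin and bovine pituitary extract. The labels give neither the age of the mice, the dose of caerulein, the interval after it, nor whether animals were pooled. Whether each replicate is its own animal or culture is not stated either. The p-values therefore rest on the spread between libraries, which may be technical. The comparison asks what sets spheroids of a pancreas with past inflammation apart from those of an untreated one.

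Class I molecules display fragments of a cell's own proteins to cytotoxic T cells. The proteasome cuts the proteins, the transporter made of Tap1 and Tap2 moves the peptides into the endoplasmic reticulum, and tapasin, the product of Tapbp, holds empty class I molecules beside it. The class I molecule is a heavy chain, here from H2-K1 or H2-D1, joined to the light chain beta-2 microglobulin from B2m. Psmb8, Psmb9 and Psmb10 encode the catalytic subunits of the immunoproteasome, which take the places of Psmb5, Psmb6 and Psmb7. Nlrc5 is the class I transactivator, which works with the RFX, CREB and NF-Y factors at paired promoter elements. Most of these genes are induced by interferons, and epithelial cells express them at a basal level.

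Of the 10 genes, 8 had promoter windows in RefSeq (GRCm38.p6, 250 bases before to 50 after each gene start), namely all except Tap2 and Nlrc5. The elements of the heavy chain and light chain promoters are shown because they are the sequences through which these genes are known to be controlled together. H2-K1 and H2-D1 each held a kappa B motif (GGGNNTTCC) followed by an interferon element, both on the gene's strand. Both stretches follow, from chr17:34000429-34000458 (minus strand) and chr17:35262923-35262952 (plus strand), 5′ to 3′, with the kappa B motif as the first run of capitals and the 10-letter interferon element, searched as exactly those letters, as the last.
H2-K1: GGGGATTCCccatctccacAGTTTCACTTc
H2-D1: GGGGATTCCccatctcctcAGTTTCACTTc
They were identical at 29 of 30 bases. On either strand, 5.82% of the 32817 promoter windows of the table held the kappa B motif and 0.140% the interferon element. A CRE core (TGACG) stood at a fixed distance before an inverted CCAAT box (ATTGG) in H2-K1, H2-D1 and B2m, with 20 bases between them. The stretches are from chr17:34000359-34000388 (minus strand), chr17:35262993-35263022 (plus), chr2:122147609-122147638 (plus) and, for Tap1, chr17:34187470-34187499 (plus), with the motifs in capitals where present.
H2-K1: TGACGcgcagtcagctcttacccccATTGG
H2-D1: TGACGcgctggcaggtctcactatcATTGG
B2m: TGACGacctccggatctgagtccggATTGG
Tap1: TGACGacagagggtcctgccctcaatctgg
The CRE core was in 20.8% of all windows and the inverted CCAAT box in 37.4%, but the pair at this spacing was in 31 of 32817, which is 0.0945%. Those windows belonged to 27 genes, among them H2-K1, H2-D1, B2m and the non-classical gene H2-M3. Over the whole stretch H2-K1 and H2-D1 were alike (23 of 30 bases identical), while B2m matched H2-K1 at 13 of 30. Tap1 had the CRE core without the inverted box at that place.

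The stretch upstream of B2m (chr2:122147437-122147685, plus strand) carried a different interferon motif, GAAA then any 2 bases then GAAA, which 3.43% of windows held on either strand. It is shown with that motif, the CRE core and the inverted CCAAT box in capitals. The kappa B motif was searched only as GGGNNTTCC, so other forms of it are not marked here. Its absence from the capitals does not show that B2m lacks such a site.
B2m: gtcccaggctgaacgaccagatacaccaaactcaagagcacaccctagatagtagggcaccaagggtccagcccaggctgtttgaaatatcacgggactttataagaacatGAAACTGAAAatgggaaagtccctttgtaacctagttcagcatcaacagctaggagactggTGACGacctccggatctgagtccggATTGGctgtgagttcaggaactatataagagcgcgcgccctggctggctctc
Tap1 and Psmb9 lie head to head on chromosome 17, with RefSeq starts 226 bases apart, so that their windows overlap by 275 bases. The gamma-activated sequence TTCNNNGAA, found in 8.29% of windows, was in that of Psmb8 alone among the 8 genes. A motif match describes these letters and does not show that a factor binds.

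Total counts ran from 34783738 to 46744497 per library, so a count of 0 allows up to 3 counts, or 0.0631 to 0.0841 CPM (the usual depth-normalised count, here on TMM-scaled library sizes). The ductal keratin gene Krt19 lay between 2304 and 4467 CPM and Epcam, an epithelial adhesion gene, between 494.5 and 760.4 CPM. The 11 ductal markers summed to 15106 to 16560 CPM in untreated and 15320 to 22973 CPM in post-caerulein libraries, but some of them were uneven. Cftr, the ductal chloride channel gene, had 39.1, 38.5 and 1.02 CPM in untreated 01 to 03 and 4.67 to 4.76 CPM in post-caerulein libraries. Sox9, a ductal factor gene, had 10.9, 12.9 and 61.7 CPM against 37.1 to 51.7 CPM. Spp1 had 169, 155 and 291 CPM against 218 to 652 CPM. Of 13 leukocyte markers, which matter here because leukocytes are rich in class I, 10 were under 1 CPM in every library. Ptprc, which marks all leukocytes, was at or under 0.105 CPM. The leukocyte list summed to 21.6 to 99.0 CPM in untreated and 14.0 to 37.9 CPM in post-caerulein libraries, most of it Cd68, a lysosomal gene that was at 97.9 CPM in untreated 03. Without Cd68 the list summed to 0.941, 1.05 and 1.11 CPM for the untreated and to 2.24, 2.86, 2.57 and 1.49 CPM for the post-caerulein libraries, higher in each of the latter. Csf1r, a receptor gene of macrophages, did not overlap either, at 0.421 to 0.675 CPM against 0.925 to 1.20 CPM (adjusted p = 0.155 with the block, edgeR quasi-likelihood). The fibroblast list summed to 0.232 to 22.5 CPM and 3.39 to 7.77 CPM, highest in untreated 03, and the acinar list to 0.619 to 0.696 CPM and 1.69 to 11.4 CPM. Of the latter Ctrb1, a digestive protease gene, rose with the block from at most 0.223 to between 0.971 and 7.32 CPM (adjusted p = 0.0378, edgeR quasi-likelihood). That call was lost without untreated 01 (0.259), untreated 02 (0.257) or post-caerulein 03 (0.109), with no filter (0.072) and with close libraries summed (0.4664). The islet list summed to 0.0248 to 0.400 CPM in untreated and 0.462 to 4.51 CPM in post-caerulein libraries. Its hormone gene Iapp was at most 0.0445 CPM against 0.147 to 0.925 CPM (adjusted p = 0.0543 with the block, edgeR quasi-likelihood). The part of these cell types in the class I values was not tested. The libraries were not set apart by group alone: the first principal component (51.7% of variance) placed untreated 03 and post-caerulein 04 at one end, untreated 01 and 02 at the other and the remaining 3 between. The authors' deposited table is matched by a fit with these 2 libraries as a block (the smaller block) against the other 5 (the larger block), although no label states such a block. Both fits were therefore run, with the group as the only term and with the block.

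Compared per length (RPKM, the CPM divided by the exon length in kilobases), the light chain and both heavy chains were the most abundant of the 10, and the transactivator the least. Mean levels over the 7 libraries were 505 ± 157 RPKM (SD, n = 7) for B2m, 460 ± 96.6 for H2-K1 and 303 ± 53.2 for H2-D1. Tapbp followed at 58.1 ± 12.0 RPKM and Tap1 at 26.8 ± 5.76 RPKM, without overlap between their ranges. Psmb10 was below Tap1 in 7 of 7 libraries, although its highest value passed the lowest of Tap1. Psmb10 (12.5 ± 6.30), Psmb8 (9.34 ± 4.29), Tap2 (8.60 ± 1.63) and Psmb9 (6.92 ± 2.11 RPKM) had overlapping ranges, so their order is not settled by these libraries. Nlrc5 stood at 2.01 ± 0.553 RPKM, below Psmb9 in all 7 libraries. B2m exceeded H2-K1 in 4 of 7 libraries, and their ranges overlapped. H2-K1 was above H2-D1 in 7 of 7 libraries, at a ratio of 1.36 to 1.74.

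**Figure D1:**
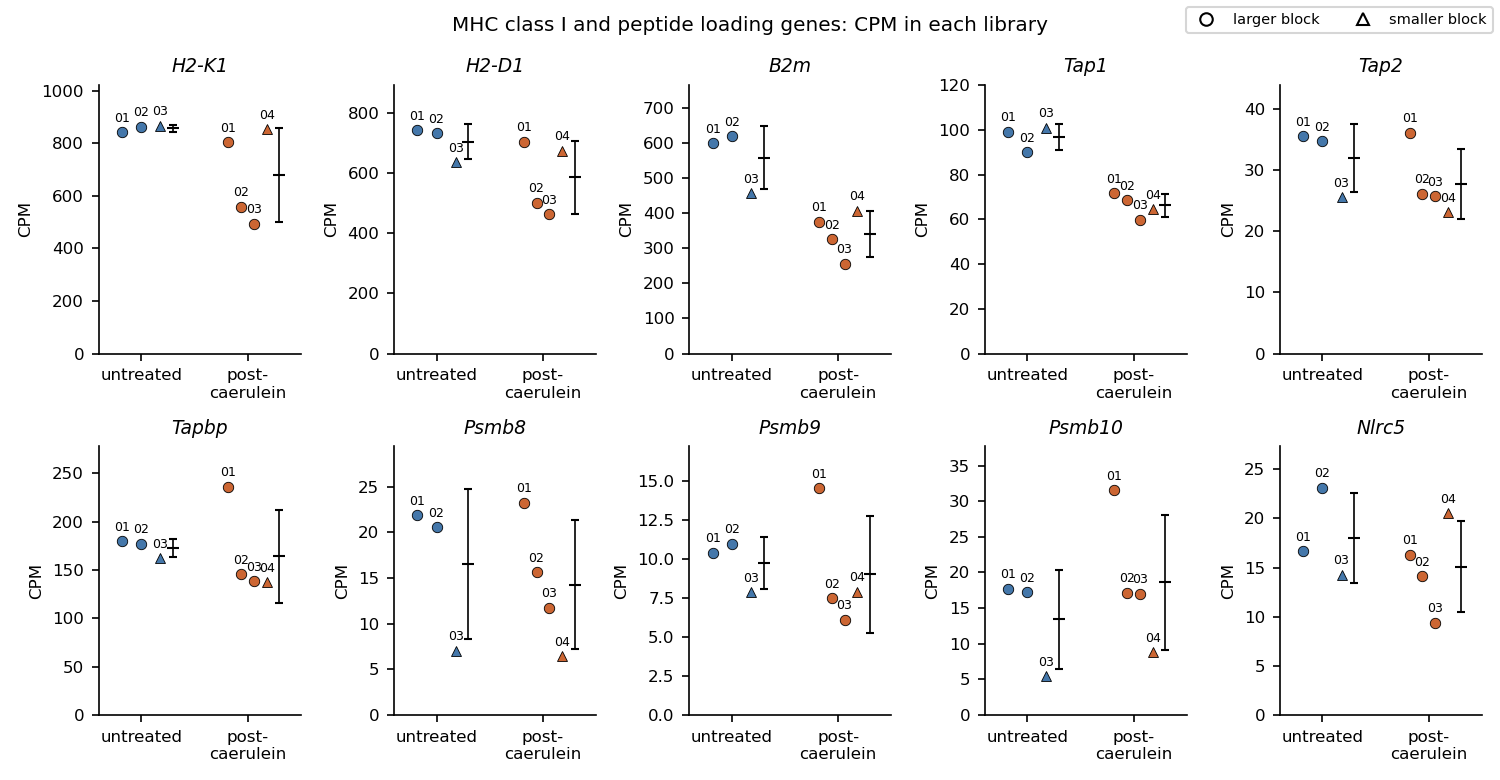
CPM (TMM-scaled, vertical axis from 0) of each of the 10 genes in the 3 untreated and 4 post-caerulein libraries, numbered as labelled, with group means and SD beside the points. Circles are libraries of the larger block and triangles those of the smaller block. In Tap1 and B2m every post-caerulein library lies below every untreated one, whereas in Psmb8 and Psmb10 both triangles lie below the circles of either group.

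Between the groups, Tap1 and B2m were the pair whose values did not overlap, and both were lower after caerulein. Tap1 (chromosome 17, 34187553 to 34197225, plus strand, GRCm38), the first half-transporter, was at 99.1, 90.1 and 100.9 CPM in untreated 01, 02 and 03. Post-caerulein 01 to 04 had 71.7, 68.6, 59.9 and 64.6 CPM. Every post-caerulein library was below every untreated one, and the smaller block showed the gap as well as the larger. The means were 96.7 ± 5.77 (SD, n = 3) and 66.2 ± 5.12 CPM (SD, n = 4). In bulk cultures, fewer cells of a type and less RNA per cell cannot be told apart. With the group as the only term the log2 change was -0.55 ± 0.10 (SE), with unadjusted p = 6.5e-04 and adjusted p = 0.182 (edgeR quasi-likelihood, Benjamini-Hochberg). With the block Tap1 fell by 0.54 ± 0.09 (adjusted p = 0.0442, edgeR quasi-likelihood), 1 of 10 genes called. Over all genes that fit called 251 of 16438 (1.53%), and 0.876% as lower. The call was lost with most single libraries left out: the adjusted p was 0.277 without untreated 01, 0.224 without untreated 02, and 0.0599, 0.116 and 0.145 without post-caerulein 01, 02 and 03. It was also lost with the closest libraries summed, untreated 01 with 02 and post-caerulein 02 with 03 (0.603), and with a stricter count filter (0.0519), although the log2 change stayed between -0.60 and -0.48 throughout.

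B2m (chromosome 2, 122147686 to 122153083, plus strand) encodes the light chain that every class I molecule needs. It had 599.5, 619 and 456 CPM in untreated 01 to 03, and 376, 325, 256 and 407 CPM in post-caerulein 01 to 04. The gap between the groups was narrow, since untreated 03 was the lowest untreated library and post-caerulein 04 the highest of its group. The means were 558 ± 88.7 and 341 ± 66.2 CPM. The log2 change of -0.71 ± 0.19 (SE) did not pass with the group as the only term (unadjusted p = 0.00575, adjusted p = 0.273, edgeR quasi-likelihood), nor with the block (adjusted p = 0.108). In the larger block alone, without untreated 03 and post-caerulein 04, it was -0.91 and passed (adjusted p = 0.0128). That fit called 13.8% of its 16276 genes and 6.46% as lower, Tap1 (-0.48, adjusted p = 0.0250) and B2m among them. DESeq2 called both genes with either design, among 509 genes with the group as the only term and 1366 with the block. The likelihood ratio test called both with the block, among 1227 genes. With the block the quasi-likelihood test called 251, so these tests called many more genes throughout.

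Groups that did not overlap with lower post-caerulein values were found for 2 of the 10 genes and for 4.65% of all genes. With the group as the only term, edgeR's quasi-likelihood test called 0 of 16438 genes (0%) and 0 of the 10. At an unadjusted p under 0.05, that fit had 2 of the 10 genes, both lower, against 9.50% of all genes and 4.72% as lower. At an adjusted p under 0.05, DESeq2 with the group as the only term called 509 genes, 2 of the 10 among them. A negative log2 change was seen in 9 of 10 genes with the group as the only term, against 52.9% of all genes. The median log2 change was -0.23 over the 10 genes and -0.02 over all genes tested. With the block 9 of 10 were negative against 50.6%, with medians of -0.27 and -0.00405. In the authors' deposited table, 2 of the 10 are listed as lower at a false discovery rate under 0.05 (3.39% of its 12983 genes). These are Tap1, with a log2 fold change of -0.53 and a false discovery rate of 0.00349, and B2m, with -0.70 and 0.00654. The other 8 have rates from 0.390 to 0.944 in the authors' deposited table.

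**Figure D2:**
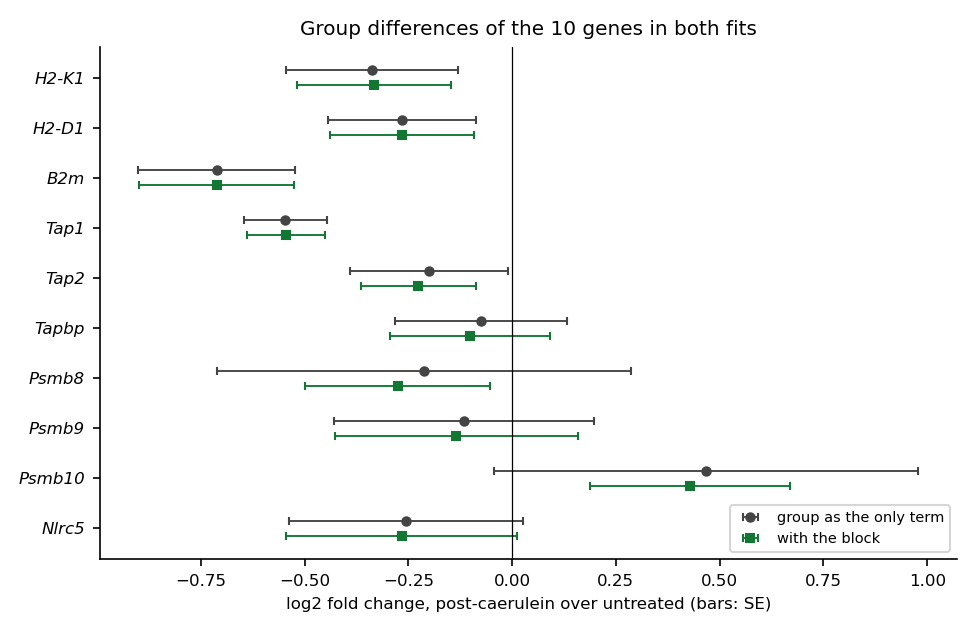
Log2 fold change of post-caerulein over untreated (horizontal axis) for each gene, with the group as the only term (circles) and with the block (squares), and standard errors as bars. The values run from -0.71 for B2m to 0.47 for Psmb10, and the block narrows the standard errors of Psmb8 and Psmb10 most.

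The 8 genes other than Tap1 and B2m had adjusted p from 0.705 to 0.962 with the group as the only term (edgeR quasi-likelihood), and their values with the block follow. The heavy chain genes had lower means after caerulein, but their groups overlapped. H2-K1 (chromosome 17, 33996017 to 34000333, minus strand) had 841, 863 and 867 CPM in the untreated and 805, 559, 494 and 854 CPM in the post-caerulein libraries. The untreated libraries were tight, while post-caerulein 02 and 03 were low and 01 and 04 reached the untreated range or nearly so. H2-D1 (chromosome 17, 35262730 to 35267499, plus strand) was at 743, 734 and 637 CPM and then 704, 501, 464 and 675 CPM, with post-caerulein 02 and 03 again the low ones. Their log2 changes with the block were -0.33 ± 0.19 and -0.27 ± 0.17 (SE), with adjusted p = 0.414 and 0.498 (edgeR quasi-likelihood). Class I heavy chains are near copies of each other, so reads could be split between them in counting. Of all runs of 50 bases in annotated H2-K1 transcripts, 9.63% were also in transcripts of other genes, and for H2-D1 12.8%, against 0% for B2m. The runs come from all annotated transcripts, 3457 for H2-K1, whereas its deposited exon length was 1641 bases. These shares, and those given below for other genes, need not hold for the exons that were counted.

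Relative to the light chain, H2-D1 transcripts stood higher in every post-caerulein library than in any untreated one. The ratio of H2-D1 to B2m, per length, was 0.507, 0.485 and 0.571 in untreated and 0.767, 0.631, 0.742 and 0.678 in post-caerulein libraries, without overlap. The mean ratio of H2-K1 to B2m was 0.821 in untreated and 1.03 in post-caerulein libraries, with values of 0.735, 0.731 and 0.996 against 1.12, 0.901, 1.01 and 1.10, and here untreated 03 overlapped the post-caerulein group. These ratios were looked at with the single values known and were not tested.

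The other genes of peptide transport and loading had no difference past the test. Tap2 (chromosome 17, 34203527 to 34216321, plus strand), the partner of Tap1, had 35.6, 34.8 and 25.6 CPM in the untreated and 36.2, 26.2, 25.7 and 23.2 CPM in the post-caerulein libraries. Untreated 03 thus sat with the lower post-caerulein libraries, and post-caerulein 01 with untreated 01 and 02. Its log2 change with the block was -0.23 ± 0.14 (SE; adjusted p = 0.461, edgeR quasi-likelihood). The ratio of Tap1 to Tap2 per length ranged from 2.31 in post-caerulein 01 to 4.60 in untreated 03. Tapbp (chromosome 17, 33919332 to 33929288, plus strand) had 179.6, 177 and 162 CPM in the untreated and 236, 146, 138 and 137 CPM in the post-caerulein libraries. Post-caerulein 01 was the highest of all 7 and the other post-caerulein libraries the lowest, so the groups spanned each other (log2 change with the block -0.10 ± 0.19, SE; adjusted p = 0.847, edgeR quasi-likelihood). For Tapbp 20.3% of transcript runs of 50 bases were shared with the antisense gene Gm19412, for Tap2 9.22% with Gm15821 and for Psmb8 11.6% with Gm20496, each annotated on the opposite strand. Tap1 and Psmb9, on opposite strands as well, shared 2.88% of the Tap1 runs and 4.19% of the Psmb9 runs. The strand setting of the counting is not known, so reads from the shared stretches of these pairs cannot be told apart.

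Psmb10 and Psmb8 varied most between libraries among the 10, with the highest library 5.78 and 3.61 times the lowest, and both were lowest in the smaller block. Psmb8 (chromosome 17, 34197790 to 34201454, plus strand) had 21.8, 20.6 and 7.05 CPM in the untreated and 23.2, 15.6, 11.7 and 6.43 CPM in the post-caerulein libraries. Untreated 03 and post-caerulein 04 were the lowest pair. Psmb10 (chromosome 8, 105935739 to 105938444, minus strand) was at 17.7, 17.3 and 5.45 CPM and then at 31.5, 17.1, 17.0 and 8.81 CPM, again lowest in that pair. Psmb9 (chromosome 17, 34181988 to 34187764, minus strand) was at 10.4, 11.0 and 7.90 CPM and then at 14.6, 7.49, 6.13 and 7.93 CPM, with no such split. Psmb10 was the exception in sign among the 10, with a log2 change with the block of 0.43 ± 0.24 (SE; adjusted p = 0.418, edgeR quasi-likelihood). Psmb8 and Psmb9 had changes of -0.28 ± 0.22 and -0.13 ± 0.29 (adjusted p = 0.596 and 0.867, edgeR quasi-likelihood). Psmb9 did not follow Tap1, the gene that starts from the same stretch of DNA: their correlation over the 7 libraries was 0.37.

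Set against the constitutive subunits that they replace, the immunoproteasome transcripts were the minor form in every library. Per length, Psmb8 stood at 0.0464 to 0.140 of Psmb5, Psmb9 at 0.0410 to 0.0812 of Psmb6 and Psmb10 at 0.0594 to 0.347 of Psmb7. Psmb8 over Psmb5 was 0.120, 0.125 and 0.0611 in untreated and 0.140, 0.122, 0.0845 and 0.0464 in post-caerulein libraries. Psmb10 over Psmb7 was 0.186, 0.188 and 0.0594 in untreated and 0.347, 0.216, 0.207 and 0.0945 in post-caerulein libraries. For both, untreated 03 and post-caerulein 04 were the lowest values. Among the constitutive subunits Psmb7 lay between 70.1 and 84.2 CPM, Psmb6 between 84.5 and 109 CPM and Psmb5 between 63.7 and 100.2 CPM. Of the 14 constitutive core genes tested, 0 were called in either fit, with a median log2 change of -0.06 with the block.

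**Figure D3:**
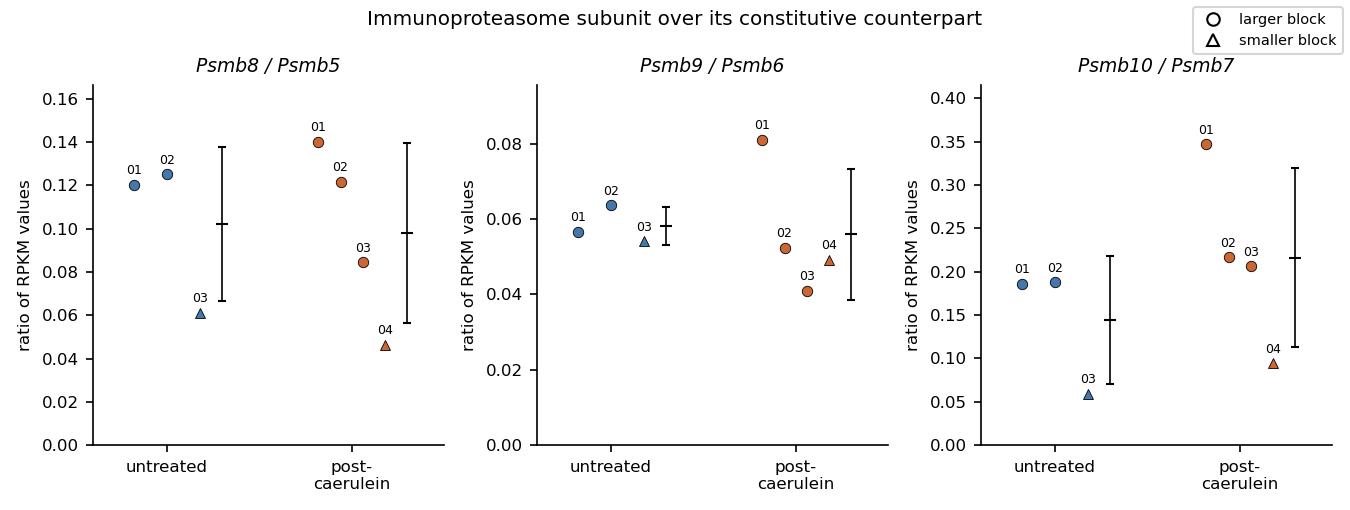
Ratio of RPKM values (vertical axis from 0) of each immunoproteasome subunit to its constitutive counterpart in every library, with group means and SD beside the points. Circles are the larger block and triangles the smaller block. For Psmb8 over Psmb5 and Psmb10 over Psmb7 both triangles are the lowest values, 0.0611 and 0.0464 for the former.

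Nlrc5 (chromosome 8, 94434391 to 94527272, plus strand) had 16.6, 23.1 and 14.3 CPM in the untreated and 16.3, 14.1, 9.40 and 20.5 CPM in the post-caerulein libraries. The groups overlapped, with the lowest value in post-caerulein 03 and the highest in untreated 02. Its log2 change with the block was -0.27 ± 0.28 (SE; adjusted p = 0.692, edgeR quasi-likelihood). Its log2 difference was -0.56 in the larger block, and post-caerulein 04 stood 0.52 above untreated 03. The test of that difference gave 1.11 ± 0.46 (log2, SE), with unadjusted p = 0.0479 and adjusted p = 0.234 (edgeR quasi-likelihood).

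In the smaller block the log2 difference of Tap1 between post-caerulein 04 and untreated 03 was -0.64. That of Psmb10 was 0.69, in the other direction. B2m differed by -0.16 there, against -0.91 in the larger block. H2-K1 and H2-D1 differed by -0.02 and 0.08 in the smaller block and by -0.44 and -0.39 in the larger. The smaller block has 1 library a group, so these differences have no replicate check. Over the 10 genes the median was -0.35 in the larger and -0.08 in the smaller block, and post-caerulein 04 was below untreated 03 for 6 of 10 genes against 49.6% of all genes. The test of a difference between the blocks assumes that the lone libraries vary like the others. It called 599 of 16438 genes (3.64%) and 0 of the 10, with unadjusted p under 0.05 for B2m (0.0372) and Nlrc5, 2 of the 10 against 20.9% of all genes (edgeR quasi-likelihood). Without post-caerulein 01 it called 4909 genes, against 599 with all libraries, and 4 of the 10, H2-K1, H2-D1, B2m and Psmb10. With so many genes called throughout, those 4 calls do not set the class I genes apart. Without untreated 01 or 02 it called 1 gene.

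**Figure D4:**
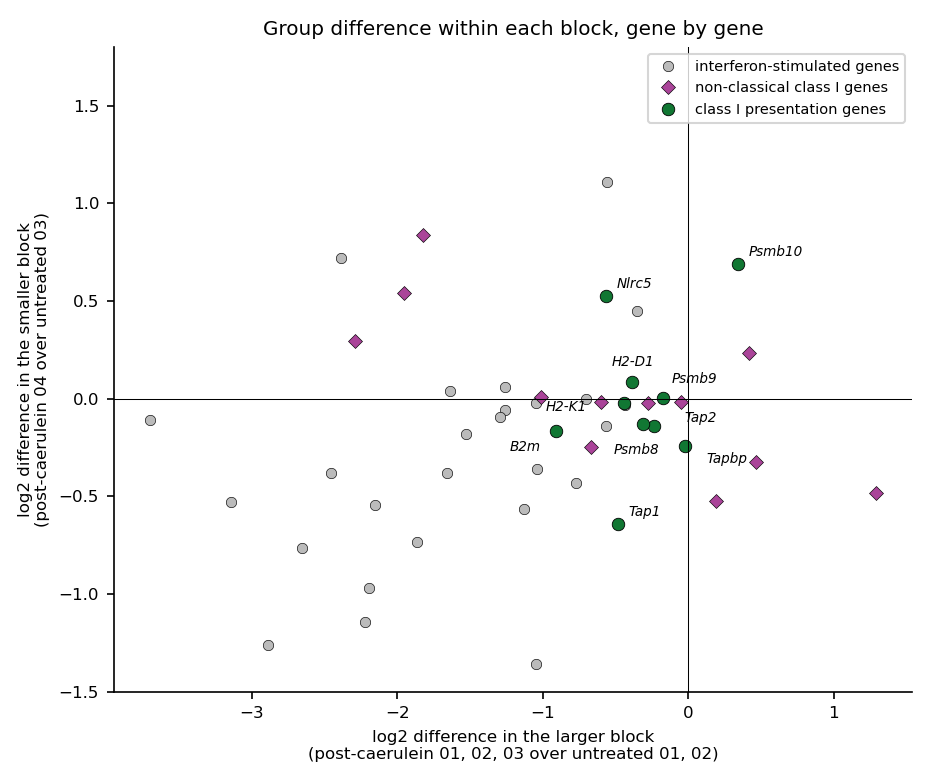
Log2 difference of post-caerulein over untreated libraries in the larger block (horizontal axis) and in the smaller block (vertical axis) for the 10 genes, the tested non-classical class I genes and the tested interferon-stimulated genes. Tap1 is negative on both axes (-0.48 and -0.64), while H2-Q6 is at -2.29 and 0.30.

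Within each group the libraries kept a common order over many of the genes. Post-caerulein 01 was the highest of its group for 7 of 10 genes and post-caerulein 03 the lowest for 6. Untreated 03 was the lowest untreated library for 8 of 10. Over the 7 libraries, which share groups and blocks, the median Pearson correlation among the 45 gene pairs was 0.56. The closest pairs were H2-K1 with H2-D1 (0.95), Tapbp with Psmb9 (0.94), Tap2 with Psmb8 (0.90) and Psmb8 with Psmb10 (0.88). Psmb10 was not positively related to Tap1 (-0.29), H2-K1 (-0.27), B2m (-0.13) or Nlrc5 (-0.03). Such orders and pair correlations were not worked out over all genes, so these values do not set the 10 genes apart. Among 9515 other genes with an average log2 CPM of at least 3, those with a course over the 7 libraries most like the mean of the 10 were Ccar1 (Pearson r = 0.98), Baz1a (0.97), Cldn4 (0.97), Litaf (0.96), Rhpn2 (0.96), Rab32 (0.95), Senp3 (0.95) and Usf1 (0.95). These are descriptions over 7 points.

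The non-classical class I genes, which resemble the heavy chains and in part serve innate-like lymphocytes, had changes in both directions. Of 17 listed, 12 were tested, 0 were called in either fit and 9 had negative changes with the block (median -0.33). In the test of a difference between the blocks 3 were called, H2-Q6, H2-Q7 and H2-T23. For H2-Q6 untreated 01, 02 and 03 had 40.9, 42.4 and 6.94 CPM, while all post-caerulein libraries had 7.18 to 9.27 CPM. H2-Q7 was at 32.0, 33.6 and 7.96 CPM against 7.29 to 11.6 CPM. Untreated 03 lay within the post-caerulein range for H2-Q7 and just below it for H2-Q6. H2-T23, the mouse ligand of an inhibitory receptor of natural killer cells, went the other way, at 67.2, 66.3 and 63.7 CPM and then 85.5, 93.3, 93.1 and 50.8 CPM. H2-T22, the other abundant gene, was even across libraries, between 42.7 and 48.5 CPM. Shared sequence limits these values: 35.0% of H2-Q6 runs, 26.5% of H2-Q7 runs and 53.5% of H2-T22 runs of 50 bases were also in other genes.

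The wider pathway showed few calls. Of 9 genes for folding and trimming in the endoplasmic reticulum and 8 proteasome activators and assembly factors, 0 passed in either fit. Hspa5, a chaperone, lay between 501.5 and 1169 CPM, Canx, the lectin chaperone calnexin, between 592 and 753.5 CPM, and Erap1, which trims peptides, between 37.4 and 62.5 CPM. Psme1 and Psme2, the interferon-inducible proteasome activator, had log2 changes with the block of -0.03 ± 0.12 and 0.07 ± 0.17 (SE). Psme4 and Psme3 had the highest CPM of the activators, at 150.4 to 279.5 and 134 to 194 CPM, but CPM takes no account of length. Per length, the means over all libraries were 74.9 RPKM for Psme1, 60.2 for Psme2, 59.3 for Psme3 and 30.9 for Psme4. Of 19 tested regulators 0 were called. Rfx5, a subunit of the RFX complex, was at 28.3 to 37.9 CPM, Irf1 at 50.6 to 78.3 CPM and Irf2 at 38.6 to 54.5 CPM.

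Interferon transcripts were at or near the counting limit, with Ifng, Ifnb1, Ifnl2 and Ifnl3 at no more than 0.0633 CPM in any library. The receptor genes were expressed, Ifnar1 at 66.0 to 84.9 CPM and Ifngr1 at 188 to 351 CPM. Ifngr1 had 216, 199 and 237 CPM in the untreated and 351, 303, 325 and 188 CPM in the post-caerulein libraries, and was called in the test of a difference between the blocks (adjusted p = 0.0427, edgeR quasi-likelihood). Of the 10 class II genes 7 were under 1 CPM in every library, Ciita, the class II transactivator, was at or under 0.133 CPM, and H2-DMa and H2-DMb1, which load class II peptides, reached at most 1.31 and 1.25 CPM.

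Interferon-stimulated genes, which share inducers with class I, were high in untreated 01 and 02 and low in untreated 03. Mx1, an antiviral GTPase gene, was at 19.3, 22.3 and 1.54 CPM without and 1.05 to 2.51 CPM after caerulein. Oasl1 was at 137, 131 and 4.56 CPM against 4.23 to 13.0 CPM. The summed level of the 26 listed genes was 1677, 1598 and 205 CPM without caerulein and 179 to 645 CPM after it. That of the 10 class I genes was 2564, 2590 and 2284 CPM without caerulein and 2314, 1680, 1482 and 2205 CPM after it. Over the interferon-stimulated genes 26 of 26 changes with the block were negative, with a median of -1.18. The antiviral gene Rsad2 had 250, 206 and 8.57 CPM in the untreated and 27.6, 38.7, 24.6 and 3.55 CPM in the post-caerulein libraries. Oas3, another antiviral gene, had 194, 205 and 6.10 CPM and then 25.2, 62.7, 40.6 and 3.09 CPM. For both, untreated 03 was below post-caerulein 01, 02 and 03. With the group as the only term neither passed (adjusted p = 0.454 and 0.666, edgeR quasi-likelihood). With the block 2 genes were called as lower, Rsad2 (by 2.50, adjusted p = 0.0233, edgeR quasi-likelihood) and Oas3 (by 1.91, adjusted p = 0.0483). Without untreated 01 these adjusted p were 0.182 and 0.271, and both calls were also lost without untreated 02 or any of post-caerulein 01, 02 and 03. With 1 library left out the changes stayed between -2.89 and -2.25 for Rsad2 and between -2.20 and -1.66 for Oas3. Both calls were further lost with no filter (0.077 and 0.188) and with close libraries summed (0.422 and 0.574), and that of Oas3 with upper quartile scaling (0.0563) and the stricter filter (0.0636). DESeq2 with the block called Rsad2 (adjusted p = 2.2e-12) and Oas3 (adjusted p = 2.1e-06), among 1366 genes. Over the 26 listed genes the median was -1.41 in the larger and -0.27 in the smaller block. In the larger block alone 17 of the 26 were called as lower, against 6.46% of all genes (edgeR quasi-likelihood). No test compared these genes with the class I genes, and the part of interferon-stimulated genes in the class I differences was not tested.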

How the data were processed

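The authors deposited raw read counts per gene for 7 libraries, with exon length, per the file headers. The submitters' processing notes name featureCounts 0.6.1 and GRCm38. Libraries were poly-A selected, per the labels' protocols. No source used here names an aligner or a strand setting. The authors' deposited edgeR (3.2.2) table holds log2 fold changes, average log2 CPM, a likelihood ratio score, p-values and false discovery rates, per the file headers. Gene IDs were matched to symbols without version numbers (54409 of 54446).

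Counts were filtered (filterByExpr, minimum count 10, total 15), normalised by TMM and tested over 16438 genes with edgeR 4.0.16's quasi-likelihood test (robust, two-sided), with Benjamini-Hochberg adjustment and a threshold of 0.05. CPM and RPKM use TMM-scaled library sizes and the deposited exon lengths. SE is the log2 change divided by the root of the F statistic. The block was untreated 03 and post-caerulein 04. With it, a refit returned the deposited log2 fold changes to within 3.2e-08 and made 1023 calls, as many as deposited. Members, lists, block and alternatives were chosen with earlier results of these data known. All 10 genes are named. Of the wider lists, members called in any fit (at most 4 each), the 2 with the highest mean CPM and a fixed set are named. Cd68, H2-M3 and the interferon genes were added after their values were seen. Some listed genes are not reported here. The procedure was tested on simulated counts. Alternatives included DESeq2 1.42.0 and limma 3.58.1 (voom), in R 4.3.3. Figures used matplotlib 3.10.9.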

Additional observations from a re-analysis of the deposited data

Results flagged for a closer look

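Among 73 sets of 4 post-caerulein values tested for a value far from the rest, 5 were found, and chance gives about 5% of sets. In 4 of them the library was post-caerulein 01: Tapbp at 236 CPM, Erap1 at 62.5 CPM, Psme2 at 81.2 CPM and Epcam at 664 CPM were each well above the other 3 libraries of the group. In post-caerulein 04 H2-T22, at 42.7 CPM, was below the other 3.

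The group difference differed between the larger and the smaller block, by edgeR's interaction test, for 16 of the 127 genes tested from the wider lists, against 3.64% of all genes, and for 0 of the 10 class I genes. Positive values mean a higher difference in the smaller block. They were 2.61 (log2) for H2-Q6, 2.52 for H2-Q7, 2.62 for Mx1, 3.61 for Oasl1, 1.70 for Oas1a and 5.22 for Cftr, the ductal chloride channel gene. They were -0.77 for H2-T23, -0.99 for Ifngr1, -2.55 for the ductal factor gene Sox9 and -2.26 for Spp1. Genes of other cell types at low levels were Cd52 (-8.52), Col1a1 (-6.05), Col1a2 (-7.31), Col3a1 (-10.1), Vim (-3.18) and Chga (-6.57), for which untreated 01 and 02 were at or near 0, so that these fitted values are no measure of size. Without untreated 01 or 02 the interaction test called 1 gene over the whole table, while the values stayed about as large, at 2.64 and 2.59 for H2-Q6, 3.59 and 3.65 for Oasl1 and 5.22 and 5.24 for Cftr. The cause was not tested.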

How the results depend on the processing

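With the group as the only term, 0 genes were called (edgeR quasi-likelihood, 1561 at an unadjusted p under 0.05), 23 with no filter, 509 by DESeq2, 343 by the likelihood ratio test, 2247 in the larger block alone and 0 to 1149 with a library left out, the latter without untreated 03. Of the 10 genes DESeq2 called 2, the likelihood ratio test 1 and the larger block 2, with 0 to 2 when a library was left out. With the block, 251 genes became 9 at a threshold of 0.01, 602 with no filter, 138 with at least 50 counts in 3 libraries, 1366 by DESeq2, 1227 by the likelihood ratio test, 0 with close pairs summed and 0 to 2267 with a library left out. The single call among the 10 became 0 at 0.01, 0 with the stricter filter, 2 by DESeq2, 2 by the likelihood ratio test, 0 with close pairs summed and 0 to 2 with a library left out. The difference between blocks was called for 599 genes, 1265 with no filter and 1 to 4909 with a library left out, and for 0 to 4 of the 10. The causes were not tested.

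Replicate numbers did not pair the libraries: deviations correlated at 0.37, 0.14 and -0.21 for numbers 01, 02 and 03. With the replicate block 0 genes and 0 of the 10 were called, and Psmb8 turned to 0.14. Other changes of sign concerned small, uncalled values. With close pairs summed and no block Tapbp was at 0.011, Psmb8 at 0.020 and Psmb9 at 0.060. With a library left out, the ranges were -0.29 to 0.013 for Tapbp, -0.56 to 0.047 for Psmb8 and -0.43 to 0.032 for Psmb9 without the block, -0.57 to 0.00019 for Nlrc5 and -0.42 to 0.030 for Psmb9 with it, and, for the difference between blocks, -0.34 to 0.063 for Tapbp, -0.0091 to 0.48 for Psmb8 and -0.039 to 0.64 for Psmb9. H2-K1, H2-D1, B2m, Tap1, Tap2 and Psmb10 kept their sign in every alternative run.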
